A study of Caenorhabditis elegans with 2 samples.

Results

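The respiratory chain and ATP synthase genes examined here are the 68 nuclear protein-coding genes of Caenorhabditis elegans whose names in the WBcel235 annotation begin with one of the prefixes ndua-, ndub-, nduc-, nduf-, nduo-, nduv-, ndus-, nuo-, sdh, ucr-, isp-, cyc-, cox-, atp-, asb- or asg-. They were selected by name from 19973 nuclear protein-coding genes, and the naming rule uses no measured value. Chromatin immunoprecipitation and sequencing (ChIP-seq) with an antibody against GFP had been done on whole embryos of strain RW12255, in which the chromosomal flt-1 gene carries TY1, EGFP and 3xFLAG tags (allele st12255). The gene is now called baz-2, and its product belongs to a family of chromatin proteins with a bromodomain and a PHD finger. There were 2 biological replicates of 1 group, staged as mid-embryos with an age label of 1 hour after egg bleaching. No other genotype, stage or treatment was compared, and signal from whole embryos cannot be placed in a tissue.

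The chain passes electrons from NADH through complex I, or from succinate through complex II, to coenzyme Q. Complex III hands them to cytochrome c, and complex IV passes them to oxygen. Complexes I, III and IV pump protons across the inner mitochondrial membrane, and ATP synthase uses the gradient to make ATP. Most subunits are encoded in the nucleus, and a small set of core subunits is encoded by mitochondrial DNA. Many worm genes receive a spliced leader by trans-splicing and some lie in operons, so an annotated gene start can differ from the point where transcription starts.

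A gene was called bound when its promoter, taken as the 1000 bp before and the 200 bp after its annotated start, held a peak summit of the conservative peak list. That list holds 2633 peaks that passed the authors' irreproducible discovery rate (IDR) threshold of 0.01 over the replicates. Signal is the authors' own measure of a peak's height or enrichment, and its scale is not stated. The pooled signal belongs to both replicates together, and replicate signals come from each replicate's own ranked list. These scales differ, so pooled and replicate values are compared only within their own kind. No read counts were used, so the depth of either replicate is unknown here.

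Sequences at 6 of the 21 summits are shown as examples, from 4 complexes. The calls below rest on summit positions and not on these sequences. They are not the 6 strongest: the pooled signals of ucr-2.2 (94.9), asg-2 (97.4) and atp-5 (107) lie below the median of 112 over all bound genes. Those of nduc-2 (232), cox-5A (188) and nduf-11 (181) lie above it. Each window holds 101 bases on the strand of its gene, 5′ to 3′, with the 11 bases centred on the summit in capitals. They come from the RefSeq WBcel235 genome, the same assembly as ce11. Shown are the windows of nduc-2 and nduf-11 of complex I, ucr-2.2 of complex III, cox-5A of complex IV, and atp-5 and asg-2 of ATP synthase.

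The window of nduc-2 lies at chrIII:2786002-2786102 on the plus strand and that of nduf-11 at chrII:11345736-11345836 on the minus strand. The window of ucr-2.2 lies at chrX:15173676-15173776 on the plus strand. The window of cox-5A lies at chrIII:12905141-12905241 on the plus strand. The window of atp-5 lies at chrV:11124067-11124167 on the minus strand and that of asg-2 at chrX:6841008-6841108 on the plus strand.
nduc-2: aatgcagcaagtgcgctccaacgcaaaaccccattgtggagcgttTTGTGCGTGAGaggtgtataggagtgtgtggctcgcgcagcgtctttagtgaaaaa
nduf-11: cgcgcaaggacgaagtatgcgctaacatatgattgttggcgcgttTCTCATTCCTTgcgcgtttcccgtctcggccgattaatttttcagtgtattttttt
ucr-2.2: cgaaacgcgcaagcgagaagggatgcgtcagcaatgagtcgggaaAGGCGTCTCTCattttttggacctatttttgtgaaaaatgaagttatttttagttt
cox-5A: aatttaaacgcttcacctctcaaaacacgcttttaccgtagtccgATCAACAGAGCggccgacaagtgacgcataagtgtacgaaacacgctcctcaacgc
atp-5: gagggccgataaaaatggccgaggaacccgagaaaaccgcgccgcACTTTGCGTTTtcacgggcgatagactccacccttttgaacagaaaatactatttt
asg-2: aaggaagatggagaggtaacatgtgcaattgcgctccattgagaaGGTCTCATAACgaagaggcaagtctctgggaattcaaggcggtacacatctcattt

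GC content within these windows ran from 41.6% at ucr-2.2 to 51.5% at nduc-2. Over 201 bp at the summit, the median GC content was 41.3% for the 21 bound genes of the chain and 44.3% over all bound protein-coding genes.

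Of the 68 genes, 21 were bound (30.9%, 95% Wilson interval 21.2 to 42.6), against 6.82% of all nuclear protein-coding genes (6.48 to 7.18). These intervals cover the counting of genes only, and neighbouring genes can share a peak. The bound genes belonged to every complex except complex II. Complexes III and IV each had 4 of 7 genes bound (57.1%, 25 to 84.2). ATP synthase had 3 of 9 (33.3%, 12 to 64.6) and complex I had 8 of 31 (25.8%, 13.7 to 43.2). Of the cytochrome c genes 1 of 2 was bound, and of the assembly factors 1 of 8 (12.5%, 2.24 to 47.1). Complex II had 0 of 4, which allows a share of up to 49% by the same interval. The intervals of all these groups overlap, so no order of the complexes is resolved at these gene numbers. No test among them was run, since genes are not replicates of a condition.

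**Figure D1:**
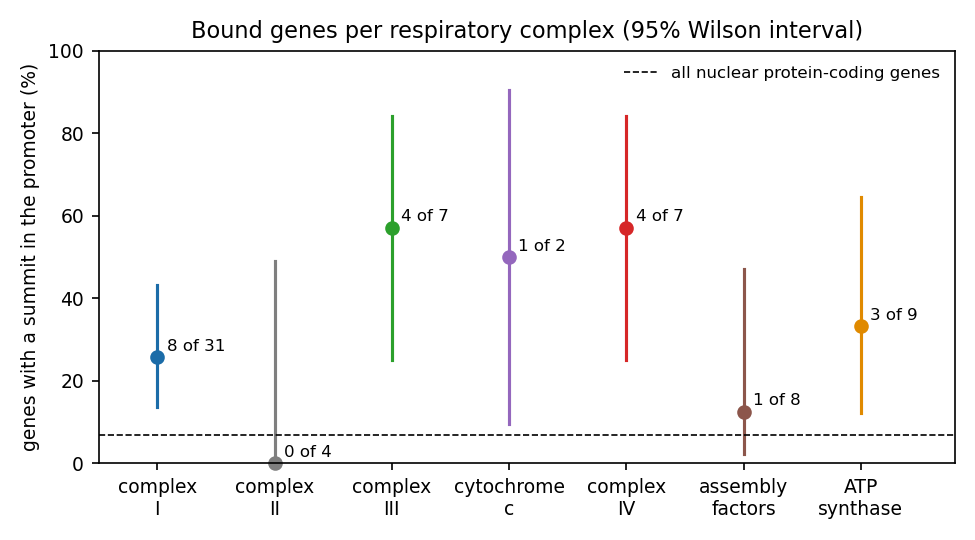
Share of genes with a conservative-list summit in the promoter (y axis, percent) for each complex (x axis), with the count beside each point and the 95% Wilson interval as a line. The dashed line is the 6.82% of all nuclear protein-coding genes; complexes III and IV stand highest at 57.1%, complex II is at 0, and the intervals overlap.

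Complex I takes electrons from NADH with a core of iron-sulphur and flavin subunits, and many accessory subunits surround that core. The highest pooled signal in a promoter of the chain, 284, was at ndua-2, an accessory subunit gene, with 154 in replicate 1 and 121 in replicate 2 (138 ± 23.3, SD, n = 2). Its peak spans I 14113168 to 14113327 (ce11), in intergenic sequence with the summit at -378 bp from ndua-2. The same summit lies in the promoters of dnj-29 and fld-1, so the gene it belongs to is not resolved.

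Within complex I the accessory subunit gene nduc-2 came next, with 139 in replicate 1 and 87.7 in replicate 2 (113 ± 36.3, SD, n = 2). Its peak at III 2785988 to 2786096 has a summit at -800 bp, which falls in an intron of cox-6B. The long cox-6B gene model, of a complex IV subunit, runs into the start of nduc-2. The start of the annotated cox-6B gene is far from this peak, so cox-6B was not called bound, but it was called when the start of any transcript was used. The summit also lies in the promoter of Y71H2AM.20.

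At nduf-11, an accessory subunit gene of the membrane arm, the signal was 92.7 in replicate 1 and 87.9 in replicate 2 (90.3 ± 3.35, SD, n = 2). The peak at II 11345638 to 11345933 is intergenic, at -166 bp from nduf-11, and in the promoter of no other protein-coding gene. The accessory gene nduf-9 had 73.0 and 62.4, with a summit at -657 bp in the microRNA gene cel-mir-4936 (III 3249084 to 3249379). The accessory gene ndua-1 had 69.8 and 44.6 at V 20852058 to 20852353, in intergenic sequence.

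The gene nuo-2 was the bound one among the core subunit genes, with 54.0 in replicate 1 and 58.1 in replicate 2. Its summit at I 6531956 to 6532251 lies in the 3' UTR of T10E9.14, whose model ends 20 bp upstream of nuo-2. The weakest complex I peaks were at the accessory genes nuo-4, with 41.1 and 38.3, and nduv-3, with 37.3 and 36.9. The nuo-4 summit lies 50 bp inside the gene, in its own coding exon (III 7158611 to 7158906). It was the only one of the 21 downstream of a start. The nduv-3 peak (IV 2641007 to 2641302) is shared with mdf-2, a spindle checkpoint gene.

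When the complex I genes were grouped by textbook role, after their values had been seen, 1 of 7 core subunit genes and 7 of 24 accessory subunit genes were bound. The core genes without a bound promoter were nuo-1, nuo-5, nduv-2, ndus-8, nduf-7 and nduf-2.2. Of these, nuo-5 had a conservative-list summit at -1103 bp, which is 103 bp outside the window, and nduf-2.2 had its nearest at -1478 bp.

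Complex II, succinate dehydrogenase, also belongs to the citric acid cycle. None of sdha-1, sdha-2, sdhb-1 and sdhd-1 was bound, and none was called in any of the 10 alternative settings. All 4 had a peak in the ranked list, which was made before the IDR threshold, with pooled signals of 58.1 at sdha-1, 38.1 at sdhd-1, 32.0 at sdha-2 and 29.9 at sdhb-1. Their highest -log10 IDR was 1.02, at sdha-1, where the threshold is 2.00. The nearest conservative-list summit to sdha-1 outside its window lay at -5897 bp.

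Complex III moves electrons from coenzyme Q to cytochrome c. Its redox subunit genes cyc-1, for cytochrome c1, and isp-1, for the Rieske iron-sulphur protein, were both bound, but at different levels. At cyc-1 the signal was 79.0 in replicate 1 and 85.2 in replicate 2 (82.1 ± 4.4, SD, n = 2), with the peak at I 8024548 to 8024843 in intergenic sequence, at -274 bp. At isp-1 it was 38.6 and 34.9 (36.7 ± 2.61, SD, n = 2), with the peak at IV 8136142 to 8136437 shared with islo-1. The pooled signal at isp-1, 71.5, was the lowest of the 21 bound genes.

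The core protein genes ucr-2.1 and ucr-2.2 were bound, and their paralogue ucr-2.3 was not. Signals were 65.9 and 34.2 at ucr-2.2 (X 15173578 to 15173873) and 48.0 and 31.1 at ucr-2.1 (X 12017984 to 12018279), in replicates 1 and 2. The ucr-2.1 peak is shared with nmat-1. The replicates differed more at ucr-2.2, by a ratio of 1.93, than at the redox subunit genes, where the ratio was 0.927 at cyc-1 and 1.11 at isp-1. At ucr-2.3 the highest ranked signal was 29.4, and at ucr-1 it was 26.7. For ucr-11 the nearest conservative-list summit lay at -1305 bp, 305 bp outside the window.

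Cytochrome c carries electrons between complexes III and IV. Of its genes, cyc-2.1 was bound and cyc-2.2 was not. The cyc-2.1 summit lies in a coding exon of the ribosomal protein gene rpl-20 (IV 4749314 to 4749609), whose model ends 111 bp upstream of cyc-2.1. The same summit lies in the promoter of Y17G9B.5. The signal was 65.1 in replicate 1 and 28.2 in replicate 2, a ratio of 2.31, the widest gap between replicates among the 21. The highest ranked signal at cyc-2.2 was 23.7.

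Complex IV, cytochrome c oxidase, had the highest signals as a group, with a median pooled signal of 215 over its 4 bound genes. At cox-6A the replicates gave 121 and 121 (121 ± 0.582, SD, n = 2), with the peak at III 5080784 to 5080926. Its summit lies at -889 bp from cox-6A inside the snRNA gene F54D8.7, and no other protein-coding promoter holds it. At cox-5B they gave 150 and 96.9 (124 ± 37.9, SD, n = 2), with the summit at -1 bp and the peak at I 9788657 to 9788763. A second, weaker peak lies at -707 bp from cox-5B, in a promoter shared with the tubulin gene tba-1.

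At cox-5A the signal was 89.9 in replicate 1 and 95.8 in replicate 2 (92.9 ± 4.14, SD, n = 2). The peak at III 12905043 to 12905338 is intergenic, at -300 bp from cox-5A, and in the promoter of no other protein-coding gene. At cox-4 the signal was 54.4 and 40.0, with the summit in an intron of a pseudogene (I 13659445 to 13659740). The unbound genes cox-6B, cox-6C and cox-7C had highest ranked signals of 30.3, 47.3 and 37.2. The pooled signals of the complex III genes, 71.5 to 156, overlapped those of complex IV, 92.4 to 251, so the groups are not separated.

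Among the 8 genes with names cox-10 to cox-19, which encode assembly factors of complex IV, cox-10 was bound. It encodes the enzyme that makes heme O for the oxidase, and had signals of 53.3 and 44.5 at II 12679683 to 12679978, in an exon of the non-coding RNA gene Y38E10A.30. The peak is shared with Y38E10A.33. The other 7 had highest ranked signals from 15.5 at cox-18 to 48.5 at cox-14.

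ATP synthase makes ATP in its F1 head, whose alpha and beta subunits are encoded by atp-1 and atp-2. At atp-1 the signal was 127 in replicate 1 and 98.3 in replicate 2 (113 ± 20.4, SD, n = 2), with the summit at -18 bp and the peak at I 12652214 to 12652310. The peak is shared with mcrs-1, which starts 190 bp away on the opposite strand. At atp-5, a subunit gene of the stalk, the signal was 58 and 52.6 at V 11123969 to 11124264, in a promoter shared with lmtr-3. At asg-2, for subunit g, it was 51.4 and 43.6 at X 6840910 to 6841205, in a promoter shared with glr-6.

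The beta subunit gene atp-2 came closest to the threshold from below. Its highest ranked signal was 79.1, with a summit 189 bp inside the gene and a -log10 IDR of 1.87, and the next below were atp-4 with 1.43 and ndub-3 with 1.38. The nearest values above the threshold were 2.11 at nduv-3 and 2.15 at isp-1. The atp-2 signal exceeded the pooled signals of isp-1 and ucr-2.1, which were bound, because the list was cut by IDR and not by signal. The paralogues asb-1 and asb-2 of subunit b, with 19.2 and 54.5, and asg-1, with 58.1, were not bound.

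Single replicates called further ATP synthase genes that the conservative list lacks. The thresholded list of replicate 1 has a peak of signal 61.6 at I 5429808 to 5430091, at -42 bp from atp-3, the gene of the subunit that joins stalk and head. No peak of the ranked list behind the conservative list overlaps it. The thresholded list of replicate 2 has a peak of signal 44.3 at III 5228032 to 5228267, at -267 bp from atp-2 and in the promoters of C34E10.10 and C34E10.12. The other thresholded list over both replicates also called atp-3 and atp-2.

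**Figure D2:**
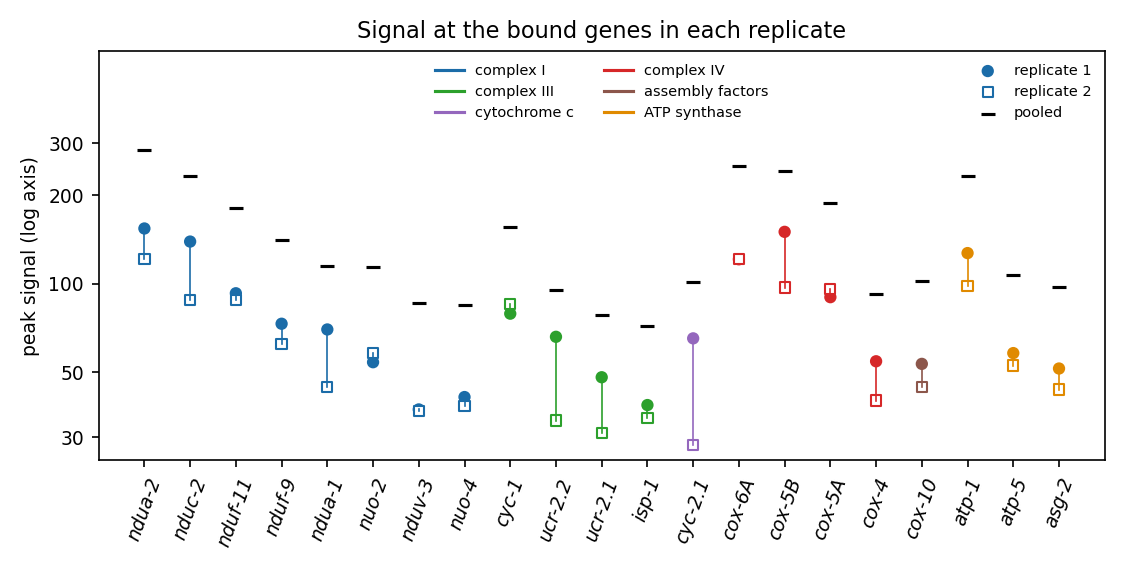
Peak signal (y axis, log scale) at each of the 21 bound genes (x axis, grouped by complex), with filled circles for replicate 1, open squares for replicate 2, a line joining them and a black dash for the pooled signal. ndua-2 is the highest in replicate 1 with 154, the circle of cox-6A is hidden behind its square at 121, and the gap is widest at cyc-2.1 (65.1 and 28.2).

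Over the 21 bound genes, replicate 1 was higher at 17 (81.0%), with a median ratio of 1.18 to replicate 2 and a range of 0.927 to 2.31. Over the 1338 bound genes with a signal in both own lists, the median ratio was 1.35 and replicate 1 was higher at 83.7%. The replicate values of neighbours in the order of signal overlap, so that order is not resolved gene by gene. The median pooled signal was 114 for the genes of the chain and 112 for all bound protein-coding genes, so the level of the bound genes was near that of bound promoters at large. The median rank was 983 of 2633 peaks, with a range from 222 at ndua-2 to 2271 at isp-1.

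Each replicate's own thresholded list, with which the replicates can be read apart, called 12 of the 68 genes (17.6%). Of all protein-coding genes, 4.43% were called in replicate 1 and 3.53% in replicate 2. The genes called in both were 9 of the 68, against 572 of all 19973 protein-coding genes. The 9 were ndua-2, nduc-2, nduf-11, nduf-9, cox-5A, cox-5B, cox-6A, atp-1 and atp-5. Of the 1338 bound genes with a signal in both replicates, 42.4% had a peak in both own lists, against 42.9% of the 21. The peaks of 8 bound genes (38.1%, against 33.2% of those 1338) overlapped neither own list: nduv-3, nuo-4, isp-1, ucr-2.1, ucr-2.2, cox-4, cox-10 and asg-2. Complexes III and IV had equal counts of bound genes. However, 3 of the 4 bound complex IV genes had a peak in both own lists, and 0 of the 4 bound complex III genes did. The share over those 1338 genes was 42.4%. The difference between the complexes was not tested. For complex III, replicate 1 called 0 genes and replicate 2 called cyc-1.

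The count of bound genes moved with the promoter and the list, and so did the share of all protein-coding genes. A promoter of 500 bp before and 100 bp after the start held 18 of the genes against 5.12% of all, without cox-6A, nduc-2 and nduf-9. One of 2000 bp before and 200 bp after held 24 against 9.09%, with nduf-2.2, nuo-5 and ucr-11 added. Any overlap of 1 bp gave 22 against 7.29%, and the start of any transcript gave 22 against 7.53%. Assigning a summit to the nearest start only gave 14 against 5.02%, since 7 genes had a summit nearer to the start of another gene. Leaving out peaks within 200 bp of a small RNA gene gave 19 against 6.33%. The other thresholded list gave 23 against 7.12%, with atp-2, atp-3 and cox-6C added and isp-1 lost. At an IDR of at most 0.0001 there were 5 against 1.19%: ndua-2, nduc-2, cox-5B, cox-6A and atp-1. Of the 68 genes, atp-1 and cox-5B were bound in all 10 of these alternatives, single replicates included.

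Most summits lay in intergenic sequence shortly upstream of the gene. The median position was -250 bp for the 21 genes and -258 bp for all bound protein-coding genes, and 14 of the 21 lay within 300 bp of the start, against 776 of 1363. The complex III summits were close together, from -297 to -178 bp, while those of complex IV ran from -889 to -1 bp and those of complex I from -800 to 50 bp. These ranges rest on 4, 4 and 8 bound genes, and their difference was not tested. Of the 21 summits, 13 were intergenic, 2 lay in coding exons, 1 in a 3' UTR, 2 in introns and 3 in exons of non-coding RNA genes. At the outer edge of the window the nearest bound genes were cox-6A at -889 bp and nduc-2 at -800 bp, and the nearest outside it among the unbound genes was nuo-5 at -1103 bp. The bound gene cyc-2.1 has a further summit outside the window, at -1054 bp, with a pooled signal of 368, above every in-window peak of the 21 genes. Another lies outside the window at 435 bp downstream of the cyc-2.1 start, nearer to it than the in-window summit.

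**Figure D3:**
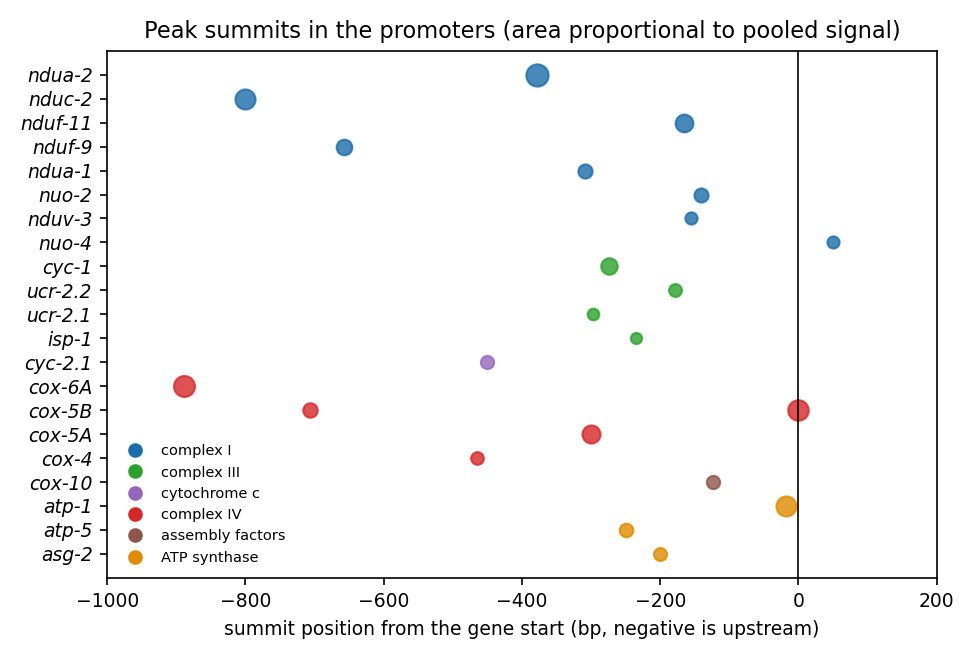
Position of each conservative-list summit relative to the gene start (x axis, bp, negative is upstream) for the 21 bound genes (y axis), with the marker area proportional to pooled signal and colour for the complex. Complex III summits sit between -297 and -178 bp, and complex IV summits spread from -889 to -1 bp.

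Many of these promoters are shared with a neighbour. For 10 of the 21 bound genes (47.6%) the summit also lay in the promoter of another protein-coding gene, against 49.4% of all bound genes. A protein-coding gene on the opposite strand starting within 1000 bp upstream was present for 34 of the 68 genes , against 17.7% of all protein-coding genes. Among the bound it was present for 9 of 21 (42.9%), against 42.8% of all bound genes. All 3 bound ATP synthase genes shared their summit, and none of the 4 bound complex IV genes shared its strongest summit. Small RNA genes lay within 200 bp of the summit at cox-6A and nduf-9, 2 of 21 (9.52%), against 7.26% of all bound genes. Their part in the signal at these genes was not tested.

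Operon-like spacing, with a gene on the same strand ending within 500 bp upstream, was found for 21 of the 68 genes (30.9%), against 18.1% of all protein-coding genes. Of these 21, 6 were bound (28.6%), against 15 of the 47 others (31.9%). The bound ones were nduf-11, nuo-2, nuo-4, cyc-1, ucr-2.2 and cyc-2.1. A gene on the same strand that runs past the start, as cox-6B does at nduc-2, was not counted as such spacing. Over all protein-coding genes, 4.90% of those with such spacing and 7.25% of the rest were bound. Assembly factor genes had this spacing in 5 of 8 cases, with 0 of the 5 bound, and complex IV subunit genes in 0 of 7. Whether these genes are in fact co-transcribed was not tested.

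By chromosome, 3 of the 5 genes on X were bound, namely ucr-2.1, ucr-2.2 and asg-2, and 18 of the 63 on autosomes (28.6%). Over all protein-coding genes the shares were 7.10% on X and 6.78% on autosomes.

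Before the IDR threshold, nearly every gene of the chain had some peak. A ranked-list summit lay in the promoter of 65 of the 68 genes (95.6%), against 61.0% of all protein-coding genes. The genes without one were ndub-11, nduf-2.2 and atp-3. The 44 genes that had a ranked peak and were not bound had a median pooled signal of 40.5, from 15.5 at cox-18 to 79.1 at atp-2. For all 10830 such protein-coding genes the median was 33.8. The highest unbound values of the other groups were 63.9 at ndub-5 in complex I, 58.1 at sdha-1 in complex II, 42.4 at ucr-11 in complex III, 47.3 at cox-6C in complex IV and 48.5 at cox-14 among the assembly factors.

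**Figure D4:**
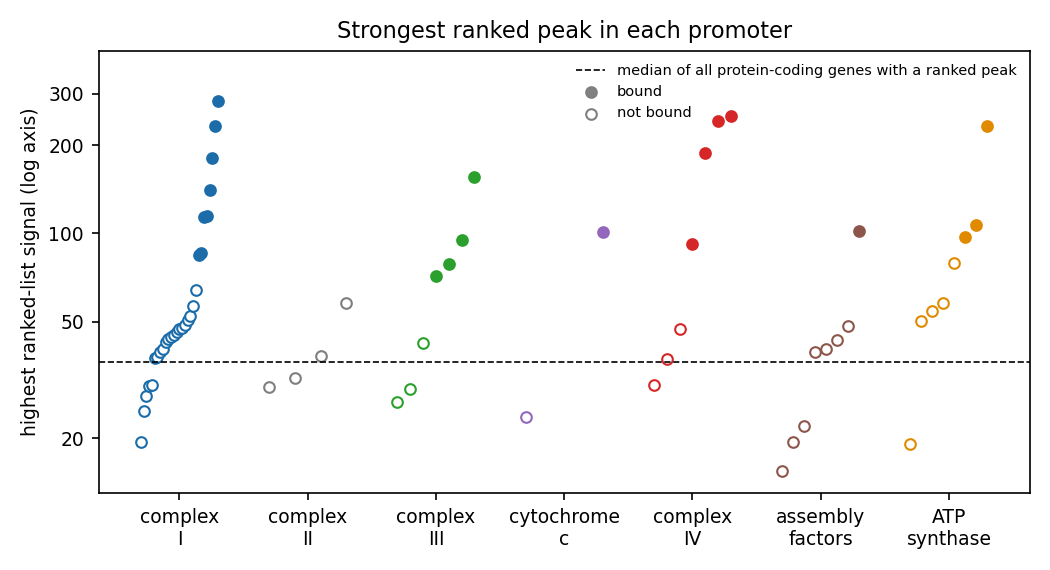
Highest pooled signal of the ranked list in the promoter (y axis, log scale) for the 65 genes with a ranked peak, by complex (x axis), with filled circles for bound and open circles for unbound genes. The dashed line is the median of all protein-coding genes with a ranked peak, 36.3, and the bound genes lie from 71.5 to 284.

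Motifs were searched on both strands from 250 bases before to 50 after the start. TGCGTCT was in 4 of the 68 (5.88%) against 4.79% of all promoters. The E-box CACGTG was in 1 (1.47%, against 5.82%), and the ETS-type CCGGAAG in 0 (against 1.57%). The NRF1-type GCGCATGC was in 3, none of them bound: cox-16, ndua-8 and nduf-2.2 (4.41%, against 0.350%). TTTCAG, the letters of worm 3' splice sites, was in 44 (64.7%, against 51.7%). GAGAGA was in 15 (22.1%, against 21.8%).

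At the summits themselves, the GAGAGA letters were in 3 of 21 windows of 201 bp (14.3%), against 32.2% of the 1075 promoter summits of the list. Those 3 were cox-5A, isp-1 and ucr-2.2. TGCGTCT was in 1, at ucr-2.1 (4.76%, against 11.0%). CCGGAAG was also in 1, at cox-6A (4.76%, against 1.12%). CACGTG and GCGCATGC were in 0 (against 3.35% and 0.651%). TTTCAG was in 7 (33.3%, against 19.6%), those of atp-5, cyc-1, cyc-2.1, isp-1, ndua-2, nduf-11 and ucr-2.1. These letters are a description of the windows and not evidence of a factor at them.

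Genes of energy metabolism around the chain were bound in 14 of 61 cases (23.0%), against 6.82% of all nuclear protein-coding genes. The list has 62 names, of which 61 were found in the annotation, and the counts of its parts below have the same background. The strongest was idhg-1, a subunit of the mitochondrial isocitrate dehydrogenase, with 324 in replicate 1 and 261 in replicate 2 (293 ± 44.9, SD, n = 2) at III 4568635 to 4568844, in a promoter shared with mlcd-1. That is above every gene of the chain in both replicates. It was 1 of 5 bound among 19 genes listed for citric acid cycle enzymes and their isoforms, with aco-1, idh-1 and mdh-1 among the unbound. The others bound were idhb-1 (60.9 and 43.7) and dlst-1 of the oxoglutarate dehydrogenase complex (74.7 and 53.8). So were the succinyl-CoA ligase genes suca-1 (45.1 and 70.6) and sucl-1 (43.9 and 30.5).

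Pyruvate dehydrogenase genes were bound in 3 of 6 cases: the regulatory kinase gene pdhk-2 (82.5 and 80.8), the phosphatase gene pdp-1 (66.6 and 36.9) and dld-1 (42.9 and 51.2). The pdp-1 peak is shared with ZK973.8. Of 5 carrier and porin genes, ant-1.1, an ADP/ATP carrier, had 92.0 and 99.4, and the porin gene vdac-1 had 48.3 and 41.3. The ant-1.1 peak is shared with T27E9.2 and abcf-2, and the vdac-1 peak with R05G6.5. Of 6 further subunit genes of the complexes with other names, the ATP synthase genes R53.4 (46.8 and 43.3) and F58F12.1 (62.8 and 37.4) were bound, and gas-1, lpd-5, mev-1 and R04F11.2 were not. The R53.4 peak is shared with psf-1. The copper chaperone gene sco-1 (103 and 70.8) was the bound one of 5 further assembly factors. Of 5 genes for upkeep and transcription of mitochondrial DNA, mtss-1, for a single-strand binding protein, had 153 and 108, in a promoter shared with mig-22. None of the 8 coenzyme Q synthesis genes or the 2 ATPase inhibitor genes was bound. The 5 further genes let-721, gpdh-1, gpdh-2, dhod-1 and sqrd-1 were also not bound.

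The subunits encoded by mitochondrial DNA are not among the 68 genes. The conservative list has 22 peaks on that molecule of 13794 bp, which holds 12 protein-coding genes. Their pooled signals ran from 121 to 2189 with a median of 868, against 71.5 to 284 at the bound nuclear genes. Mitochondrial DNA is present in many copies per cell, and its share in these signals was not tested.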

How the data were processed

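The data are peak lists from anti-GFP ChIP-seq of 2 biological replicates of 1 group, grouped and numbered by the labels, with ce11 coordinates. Per the labels, ce11 was the assembly. No source used here names the peak caller or aligner, and the depth is unknown. The authors deposited a signal and an IDR score for each peak, and in the ranked lists a -log10 of the global IDR. Signal was used only to describe and rank peaks within a list. The conservative list was used for calls and the ranked list behind it for the remaining genes. Replicate signals are those of the overlapping peak with the nearest summit in each replicate's own ranked list.

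Gene models came from Ensembl release 115 (WBcel235, the assembly of ce11). All genes with a summit in the window were counted, and the strongest peak gave a gene its signal. Intervals are 95% Wilson intervals. The software was Python 3.11.15 with pandas 2.3.3, NumPy 2.4.6, matplotlib 3.10.9 and SciPy 1.17.1, and the assignment of summits to genes was tested on planted summits. The genes and lists were chosen with earlier results of these data known. All bound genes of the chain and of the wider lists are named, with the unbound gene of highest ranked signal per complex and those nearest to the window or the IDR threshold. No test was run, because there is 1 group and the genes are not replicates. The labels call the replicates biological and do not say whether they came from separate cultures. Roles within the complexes were assigned after the values were seen. Windows are printed for 6 of the 21 summits, picked with the values known and leaving out others by chromosome or for an annotated UTR. The sequences at the other summits are not reported here.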

Additional observations from a re-analysis of the deposited data

How the results depend on the processing

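Of 102 values under alternative settings, 74 stayed within 1.5 times the main count or within the spread between the replicates. The 74 include complex II, at 0 in all 10 alternative settings, and counts in groups with 1 bound gene. The 21 bound genes became 18 with a promoter from 500 bp upstream to 100 bp downstream, 24 from 2000 bp upstream and 23 in the other thresholded list. With only the nearest gene start they became 14. The summits of atp-5, cyc-2.1, isp-1, ndua-2, nduc-2, nduv-3 and ucr-2.1 lay nearer to the start of another gene. That left complex I with 5, complex III with 2 and cytochrome c with 0. At an IDR of at most 0.0001 there were 5 (7.35%, against 1.19% of all genes): 2 of complex I, 2 of complex IV, 1 of ATP synthase, and 0 of complex III, cytochrome c and the assembly factors. The other thresholded list gave ATP synthase 5, with atp-2 and atp-3 added. In the own list of either replicate alone the count was 12 in all and 5 for complex I in both, 0 to 1 for complex III, 0 to 1 for cytochrome c and 0 for the assembly factors in both. Complex II was at 0 in every setting run.

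The median signal of 114 was 105 with the shorter promoter and 128 with the nearest start, and 52.6 to 65.9 in single replicates, whose scale differs. The median rank of 983 became 1148 and 816 in those first 2 settings, and the median position of -250 bp became -218 bp with the shorter promoter and -218 bp with the start of any transcript. The depth is unknown here, so it cannot be said which unbound genes a deeper library would call. No paired analysis was possible because there is 1 group.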
